A study of Mus musculus with 10 samples.

Results

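Isolated intergenic SOX2 regions are stretches of the genome bound by the transcription factor SOX2 that lie between protein-coding genes and stand alone. They were taken from ChIP-seq (sequencing of DNA precipitated with a bound protein) of HA-tagged SOX2 in mouse embryonic stem cells. SOX2 peaks that shared 1 bp or more were joined into regions, and a region was kept when both libraries had a peak in it. A kept region entered the set when its summit lay outside every RefSeq protein-coding gene body, over 5 kb and up to 100 kb from the nearest one, and no other kept region had an edge within 12.5 kb. Of 5115 merged regions 2369 were kept, and 656 of these met the rule. The set was thus chosen from the SOX2 peak calls of both libraries, so its SOX2 values are given as a description and were not tested.

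The 10 samples of the series comprise 2 SOX2 ChIP, 3 SOX15 ChIP and 5 input libraries, all from knock-in mouse embryonic stem cells in 2i/LIF medium, which holds the cells in a naive state. In every group chromatin was fixed with 1% formaldehyde for 5 min, and SOX2 or SOX15 carried the HA tag. The labels give no other change of genotype, no number of clones and no statement that replicates were separate cultures, so differences between replicates may be technical. The SOX2 lists held 2676 and 4817 peaks in replicates 1 and 2, and the SOX15 lists 217, 672 and 437 peaks in replicates 1, 2 and 3. The lists hold no read counts, so depth is unknown, and inputs were not analysed here. Expression was not measured in these files, so the labelled cell type could be checked only through the genes near SOX2 regions.

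SOX2 is an HMG-box factor that bends DNA from the minor groove, and in embryonic stem cells it often binds with OCT4 (the product of Pou5f1) at a joined site made of a SOX element and an octamer. Many of its sites are enhancers, short elements that act on promoters from a distance, and the nearest gene is not always the one regulated. Several enhancers close together can form an array over a key gene. The regions described here are those with no other kept SOX2 region within 12.5 kb. Enhancer activity was not measured in these files. SOX15 is a related factor of another SOX subgroup with a similar DNA-binding domain.

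The word intergenic refers to protein-coding genes alone. Of the 656 summits, 111 (16.9%, Wilson 95% interval 14.2 to 19.98) lay inside a gene of a long noncoding RNA (lncRNA). Over all kept SOX2 regions the share was 11.1%. Isolated regions inside protein-coding genes had 6.0% (57 of 950), isolated regions over 100 kb from any such gene 15.4% (45 of 292) and intergenic regions at the same distances with a neighbour within 12.5 kb 22.5% (20 of 89). The intervals cover counting error alone, regions are not replicates, and these differences were not tested. Isolation refers to regions found in both libraries: 81 of the 656 had a region called in 1 SOX2 library within 12.5 kb.

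No genome sequence was used here, but RefSeq promoter windows of GRCm38.p6, the assembly whose coordinates mm10 shares, overlapped 15 of these regions. The windows run from 250 bases before to 50 bases after a start, and each of the 15 belongs to an lncRNA gene. They show the DNA under a SOX2 peak where it can be read. The stretches shared by window and region are given below for the strongest and the best known of them, 5′ to 3′ on the strand of the gene, with capitals for matches, on either strand, to the SOX core CATTGT, the core of the joined SOX and octamer site TTGTNATG, or the octamer ATGCAAAT.
Gm34201 (chr15:84622114-84622413, minus strand): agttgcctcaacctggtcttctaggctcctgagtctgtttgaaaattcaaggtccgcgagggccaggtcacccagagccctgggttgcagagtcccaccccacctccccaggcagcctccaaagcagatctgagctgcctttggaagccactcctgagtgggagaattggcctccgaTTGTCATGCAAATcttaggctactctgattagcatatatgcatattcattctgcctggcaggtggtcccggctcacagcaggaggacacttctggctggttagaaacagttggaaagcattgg
Gm31155 (chrX:99557083-99557275, plus strand): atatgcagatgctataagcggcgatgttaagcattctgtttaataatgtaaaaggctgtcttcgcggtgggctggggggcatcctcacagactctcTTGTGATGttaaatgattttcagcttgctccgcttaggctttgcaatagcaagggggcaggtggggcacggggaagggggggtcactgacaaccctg
Gm39036 (chr7:73602707-73602802, plus strand): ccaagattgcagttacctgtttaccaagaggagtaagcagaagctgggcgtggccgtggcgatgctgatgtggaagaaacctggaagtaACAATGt
Malat1 (chr19:5802623-5802851, minus strand): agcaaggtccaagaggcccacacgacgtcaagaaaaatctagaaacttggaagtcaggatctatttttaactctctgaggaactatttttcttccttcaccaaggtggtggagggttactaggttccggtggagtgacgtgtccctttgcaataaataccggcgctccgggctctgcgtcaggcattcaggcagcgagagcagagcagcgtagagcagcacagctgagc
Snhg5 (chr9:88522848-88523007, minus strand): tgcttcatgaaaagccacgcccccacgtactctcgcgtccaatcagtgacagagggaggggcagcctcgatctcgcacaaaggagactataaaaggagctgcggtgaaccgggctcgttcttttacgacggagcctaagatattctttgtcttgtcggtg

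The SOX2 summit at Gm34201 lay on a joined site. The match to TTGTNATG and the overlapping octamer had their centres 1.5 and 3.5 bp from the summit. The summit itself lay 68 bp upstream of the start of Gm34201 and 40.975 kb from Prr5, the nearest protein-coding gene. The deposited fold enrichment there, the authors' linear ratio over background, was 14.4 in SOX2 replicate 1 and 23.9 in replicate 2, and no SOX15 library had a peak. At Gm31155 the match lay 156.5 bp from the summit, and at Gm39036 222.5 bp. The shared stretches of Malat1 and Snhg5 held none of these 3 motifs. Of the 15 whole windows of 300 bases, 3 held the SOX core, 2 the joined core and 1 the octamer. Over all 32851 windows in the table the shares were 12.6%, 3.37% and 1.74%, and over the 11575 lncRNA windows 15.4%, 4.38% and 1.87%. Of the 50 windows that overlap other kept SOX2 regions 15, 11 and 8 held them, so the 15 windows had no higher shares than these 50. Whole windows reach past the regions, with only 8 bases shared at Gm36466, so a match in a window need not lie under a SOX2 peak. The shares thus describe windows and not the isolated intergenic regions as a set. These shares were not tested. A match describes letters and does not show a bound site.

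SOX2 fold enrichment ranged from among the lowest to among the highest of each list. In replicate 1 the lowest, median and highest fold over the 656 regions were 3.00, 8.69 and 37.0, and in replicate 2 they were 3.31, 11.5 and 47.3. Folds compare only within a list. Against all peaks of its own list the median region stood at percentile 54.5 in replicate 1 and 73.9 in replicate 2, and 484 of the 656 (73.8%) stood higher in replicate 2, the longer list. Among the other 1713 kept regions 68.5% did so.

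The libraries ranked the regions alike in part. Across the 656 regions the log2 folds of both libraries had a Pearson r of 0.64 and the folds a Spearman rho of 0.57, against 0.63 and 0.58 across the other kept regions. These describe regions of the same libraries and are not independent measurements. Above the 90th percentile of their list were 70 regions in replicate 1 and 144 in replicate 2, and 64 were in both. At or below the 25th percentile were 138 and 57, and 21 were in both. Most of the highest regions of replicate 1 were also among the highest of replicate 2, and few regions were low in both. Percentiles are taken within lists of unlike length, and the rule needs a peak in both. These counts are therefore description only. The summits of the libraries lay a median of 20.5 bp apart, within 50 bp at 538 regions (82.0%), with a largest gap of 376 bp. Regions were 222 to 1218 bp wide (median 414 bp).

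**Figure D1:**
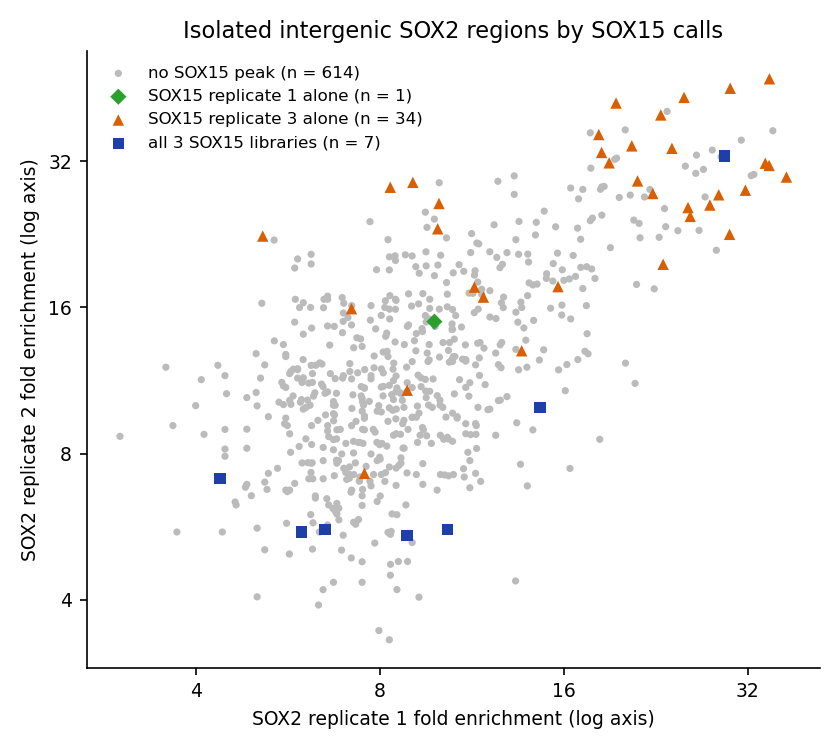
Each point is 1 of the 656 regions, with the deposited fold in SOX2 replicate 1 on the x axis and in replicate 2 on the y axis (both log axes), and colour and shape give the SOX15 libraries with a peak on it. Regions called by SOX15 replicate 3 alone gather at the upper right. Of the 7 called by all 3 SOX15 libraries, 6 have SOX2 replicate 2 folds of 5.43 to 9.95, below the median of 11.5 over the 656 regions.

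SOX2 folds of isolated intergenic regions were close to those of the other classes. The median log2 fold exceeded that of isolated regions inside genes by 0.02 in replicate 1 and 0.08 in replicate 2, and that of isolated regions over 100 kb from genes by 0.005 and 0.10. Against the 89 clustered intergenic regions at the same distances it was lower by 0.03 (-0.03) in replicate 1 and higher by 0.05 in replicate 2. With 2 libraries an exact sign test cannot go below p = 0.5, so none was made. As mean ± SD of the libraries (n = 2) the differences were 0.05 ± 0.04, 0.05 ± 0.07 and 0.01 ± 0.06, so the last 2 were smaller than the spread between libraries. The highest fold was 37.0 and 47.3 here, 60.6 and 64.5 inside genes, and 49.2 and 59.5 among clustered regions, in replicates 1 and 2.

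The regions were spread over all 20 chromosomes with peaks. They made up from 19.1% (21 of 110, chromosome 7) to 36.7% (18 of 49, chromosome X) of the kept SOX2 regions of a chromosome. Per 100 Mb, taken to the last peak, the X chromosome had 10.8 and chromosome 19 had 41.5. The nearest other kept region lay a median of 252 kb away, over 100 kb away for 467 regions (71.2%) and over 1 Mb away for 95.

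Distances to genes leaned to the short side of the allowed range. The median was 24.5 kb, with 143 regions at 5 to 10 kb, 137 at 10 to 20 kb, 217 at 20 to 50 kb and 159 at 50 to 100 kb. Median fold changed little over these bins. It was 8.49, 8.59, 8.76 and 8.88 in replicate 1 and 10.99, 11.4, 11.7 and 11.7 in replicate 2. The strand of the nearest gene was known from the promoter table for 489 regions. Of these 289 (59.1%, interval 54.7 to 63.4) lay upstream of the gene and 200 downstream. Over all kept regions outside genes and with a known strand the upstream share was close to this, at 57.9% (563 of 973). In regions over 100 kb from genes 60.6% (129 of 213) were upstream, and in clustered intergenic regions 45.3% (29 of 64, interval 33.7 to 57.4). The differences were not tested. Folds were similar on either side, with medians of 8.48 upstream and 9.07 downstream in replicate 1, and 11.4 and 11.8 in replicate 2.

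**Figure D2:**
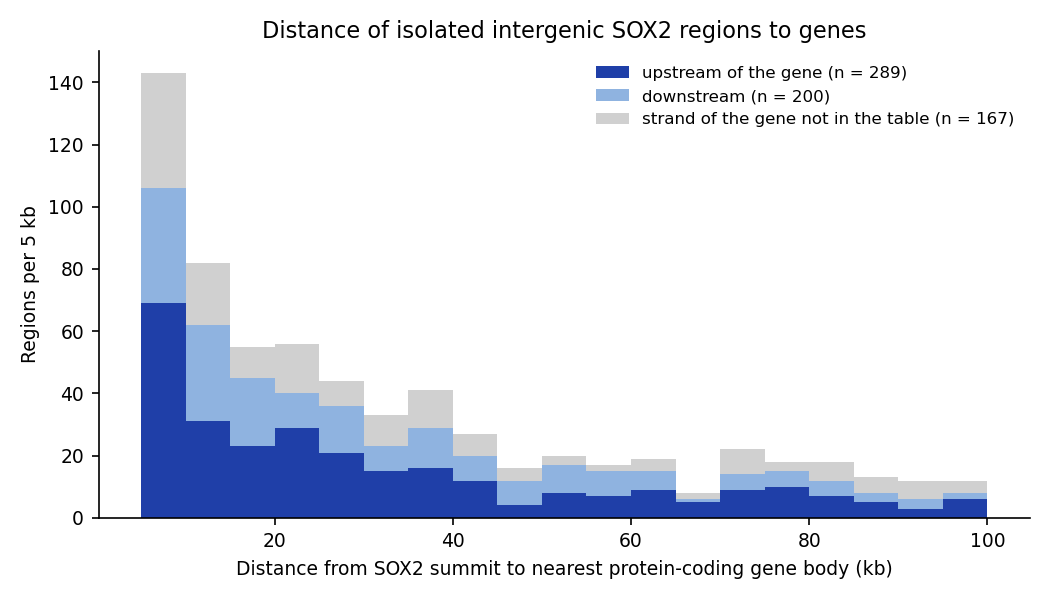
Number of regions in 5 kb bins of the distance in kb from the SOX2 summit to the nearest protein-coding gene body, stacked by the side of the gene (289 upstream, 200 downstream, 167 whose gene has no strand in the table). The first bin, 5 to 10 kb, is the fullest with 143 regions.

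The regions next to the limits of the rule had folds from ordinary to among the highest. Just inside 5 kb were regions near Pramel6 (5.045 kb, folds 21.7 and 27.0) and Mymx (5.124 kb, folds 9.28 and 18.8), and just outside it regions near Vmn1r1 (4.999 kb, folds 7.68 and 13.6) and Akr1cl (4.912 kb, folds 10.1 and 19.1). At the far limit a region near Car2 (99.264 kb, folds 10.4 and 13.1) was inside, and Ext1 (100.249 kb, folds 6.14 and 7.18) and Cited2 (100.269 kb, folds 7.49 and 6.26) were outside. For isolation, Arl4d (12.811 kb to the next region) and Znfx1 (13.047 kb) were inside, and Kif2c (11.648 kb) and Asns (12.036 kb) outside.

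The 10 strongest regions, by mean percentile rank of fold over both libraries, had as nearest protein-coding genes Mgat4e, Vwc2, Olfr761, Gsx2, Klf9, Gm6871, Slain2, Arl4d, Deptor and Lifr. The first (chromosome 1, 134534910 to 134535486, 5.694 kb from Mgat4e) had folds of 34.7 and 47.3. The region 15.404 kb upstream of Vwc2, the gene of a secreted BMP antagonist (chromosome 11, 11098082 to 11098773), had 35.2 and 37.0. That near Gsx2, a homeobox gene of the forebrain (chromosome 5, 75085108 to 75085611), had 31.2 and 35.4. Klf9 encodes a Krüppel-like factor, and the region 46.103 kb upstream of it (chromosome 19, 23094734 to 23095436) had 34.7 and 31.4. Deptor encodes an inhibitor of mTOR, and the region 8.98 kb from it (chromosome 15, 55267867 to 55268485) had 32.7 and 30.04. All 10 were above percentile 97 in both libraries. SOX15 peaks lay on 6 of them, where 8.02% of all kept regions had one. Above a mean rank of 90, SOX15 replicate 3 had peaks at 29.9% of the isolated intergenic regions (23 of 77) and 35.0% of the other kept regions (69 of 197).

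The 12th strongest region lay inside Xist, the lncRNA that silences an X chromosome, and inside its antisense gene Tsix. It was singled out after its values were seen. It (chromosome X, 103472203 to 103472785) had folds of 28.0 and 33.7, no SOX15 peak, and Tsx, 47.927 kb away, as nearest protein-coding gene. Of the lncRNA genes named Platr, for pluripotency-associated transcript, 2 held a summit and 2 lay within 1 kb of one, also noted after seeing the data. The folds were 9.92 and 6.73 in Platr6, 7.14 and 12.3 in Platr11, 8.50 and 6.88 beside Platr26, and 6.17 and 20.6 beside Platr22. None of these 4 had a SOX15 peak, which is near the background, as 8.02% of all kept regions had one.

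The weakest regions by mean rank were near Gab1 (folds 5.04 and 4.06), Entpd6 (3.72 and 5.52) and Sipa1l2 (5.18 and 5.07). The libraries differed most at other sites. Ranks were lower in replicate 2 by the widest margins near Chd1l (13.3 and 4.38) and Tbx18 (9.27 and 4.05). They were higher in replicate 2 by the widest margins near Mbip (5.14 and 22.4), Zfp217 (5.37 and 22.0) and Kif5b (5.13 and 16.3). At these 5 regions 1 of the libraries placed the region at ordinary or high strength and the other near its weakest peaks.

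The 656 regions had 619 distinct nearest protein-coding genes, which is 2.86% of the 21631 tested, and 33 genes were nearest to more than 1 region. Gm525, Reep3, Tle4 and Zfp281, singled out after the counts were seen, had 3 each. At Zfp281, a zinc finger factor of pluripotent cells on chromosome 1, the regions lay 11.509 kb upstream and 44.474 and 64.839 kb downstream. Their folds were 11.6 and 15.9, then 7.74 and 6.87, then 6.17 and 20.6. At Tle4, a co-repressor of WNT target genes on chromosome 19, the 3 regions were all upstream, at 25.371, 58.12 and 78.831 kb. Their folds were 9.61 and 10.1, 6.71 and 10.1, and 6.38 and 12.3. At Reep3 the middle region had folds of 9.99 and 26.2 and a peak in SOX15 replicate 3, and the others no SOX15 peak. The regions of a gene are over 12.5 kb apart by the rule, and whether they act as enhancers was not measured.

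Genes of 19 lists drawn up for this tissue were nearest to 38 of the regions (5.79%), against 104 of the other 1713 kept regions (6.07%). By genes, 29 of 283 distinct list genes (10.2%) were nearest to a region, beside the 2.86% of all protein-coding genes given above. Distances between genes differ and were not matched, and the lists were written with earlier results of these data known, so nothing particular is read from this share. The FGF and ERK list had 4 of 16 genes. Naive pluripotency had 3 of 17, formative and primed 3 of 17, chromatin regulators 3 of 20, trophectoderm 3 of 18 and mesoderm 3 of 16. The SOX family had 2 of 19, LIF and JAK-STAT 2 of 13, WNT 2 of 18, TGF-beta and BMP 2 of 17 and germline 2 of 17. Core pluripotency had 1 of 15, neuroectoderm 1 of 16 and skeletal muscle 1 of 16. Primitive endoderm (16 genes), TEAD and Hippo (16), housekeeping (18), liver (15) and the 2-cell-like state (12) had 0. By regions, 3 of the 15 kept regions nearest to core pluripotency genes were isolated intergenic ones, and 4 of the 29 nearest to naive pluripotency genes, where 656 of all 2369 kept regions were. The median mean rank of the 38 regions was 56.4, against 60.1 over all 656, so list genes did not have the stronger regions here.

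Signal receptors and their feedback inhibitors formed 1 part of these genes. The region 8.552 kb upstream of Lifr, the receptor subunit for LIF (chromosome 15, 7081796 to 7082357), had folds of 32.4 and 29.9. The region 5.277 kb upstream of Socs3, the feedback inhibitor of JAK-STAT signals (chromosome 11, 117975378 to 117975857), had 5.87 and 20.1. These are the 2 genes of the LIF list, and Lifr, unlike Socs3, stood above percentile 98 in both SOX2 lists. Inhibitors of ERK signals had lower folds than Lifr. Spry2 had a region on either side, 31.868 kb downstream (folds 10.0 and 10.3) and 24.195 kb upstream (5.80 and 14.9). Spred2 had its stronger region 6.318 kb upstream, with 7.45 and 10.5. For the WNT pathway, the region 40.275 kb downstream of Dkk1, a secreted inhibitor (chromosome 19, 30505324 to 30505837), had 8.29 and 20.3. The WNT receptor gene Fzd7 had its stronger region 58.762 kb upstream, with 10.0 and 8.73. A weaker region 9.395 kb upstream of Fzd7 had 7.25 and 5.78. Smad7, which blocks TGF-beta receptors, had a region 22.261 kb away (chromosome 18, 75344784 to 75345552) with 13.3 and 29.8. Tgif1, a repressor of SMAD targets, had one 13.239 kb upstream with 9.39 and 14.3.

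The 3 genes from the list of 20 chromatin regulators belong to Polycomb repressive complex 2, which methylates histone H3 at silent genes. Jarid2, a cofactor, had 2 regions upstream (chromosome 13), at 25.136 kb with folds of 18.4 and 28.0 and at 8.361 kb with 9.55 and 23.4. Suz12, a core subunit, had a region 12.363 kb upstream (chromosome 11, 79980565 to 79980960) with 14.0 and 16.9. Eed, another core subunit, had one 42.378 kb upstream with 6.17 and 12.2. All 4 regions were called in no SOX15 library. Only 8.02% of all kept regions had a SOX15 peak, so nothing is read from this.

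Transcription factor genes made up most of the rest. Foxd3, a forkhead factor of pluripotent cells and neural crest, had a region 20.079 kb upstream (chromosome 4, 99635851 to 99636663) with folds of 24.6 and 23.0. A weaker region 16.655 kb downstream had 10.8 and 11.4. Zfp42, also called Rex1 and a marker of naive cells, had one 13.799 kb upstream (chromosome 8, 43320559 to 43321161) with 16.2 and 12.2. Sox9, a SOX factor of cartilage and other tissues, had 2 regions, at 23.526 kb (10.5 and 12.5) and 83.085 kb (8.04 and 15.4). Sox13 had one 68.218 kb upstream with 8.09 and 10.5. Genes of later lineages were present at moderate folds. Tfap2c, a factor of trophectoderm and germ cells, had 9.24 and 11.6. Snai1, which drives epithelial to mesenchymal transition, had 9.63 and 12.5. Msgn1, of presomitic mesoderm, had 8.04 and 10.97, and Eomes, of mesoderm and trophectoderm, had 7.14 and 12.3. No SOX15 library had a peak at the 25 strongest list regions, Zfp281 included. Over all kept regions 8.02% had one, so a count of 0 among 25 is near the background and nothing is read from it.

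**Figure D3:**
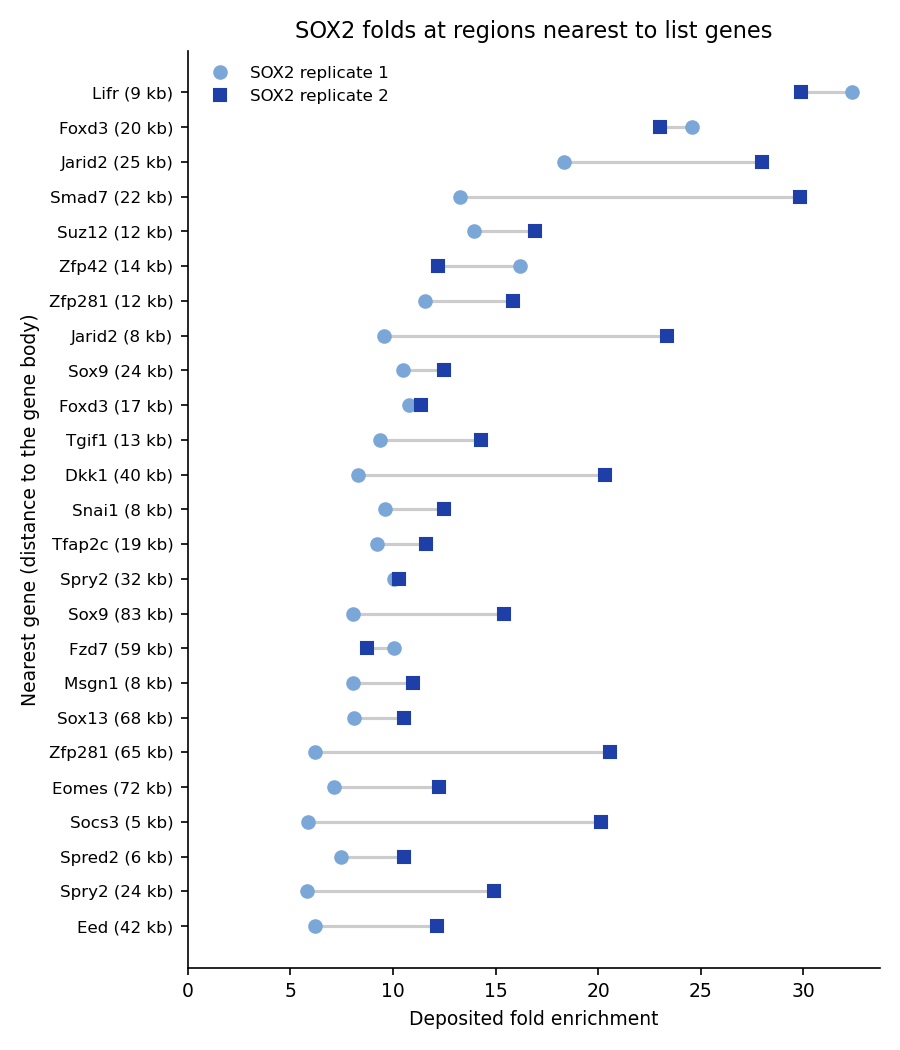
Deposited folds in SOX2 replicates 1 and 2 (points joined by a line) at the 25 highest-ranked regions whose nearest gene is on a list, with the distance to the gene in kb beside its name. Lifr stands first with 32.4 and 29.9, and Eed last with 6.17 and 12.2, in the order of their mean rank.

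SOX15 calls were not used by the rule. A SOX15 peak overlapped 42 of the 656 regions (6.40%, interval 4.77 to 8.54), where the share over all kept SOX2 regions was 8.02%. By library, replicate 1 had a peak at 8 regions (1.22%, interval 0.62 to 2.39), against 3.04% of all kept regions. Replicate 2 had one at 7 (1.07%, interval 0.52 to 2.19), against 3.00%, and replicate 3 at 41 (6.25%, interval 4.64 to 8.37), against 7.81%. So each library was at or below its background here. Isolated regions inside genes had 1.05%, 1.26% and 6.21% in SOX15 replicates 1, 2 and 3, close to the values of the isolated intergenic ones. Regions over 100 kb from genes had 0 of 292 in replicates 1 and 2 (upper end of the interval 1.30%), and 2.05% (interval 0.95 to 4.41) in replicate 3. Clustered intergenic regions had 10.1%, 10.1% and 16.9%. With 3 SOX15 libraries an exact sign test cannot go below p = 0.25, so the classes were not tested against each other.

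**Figure D4:**
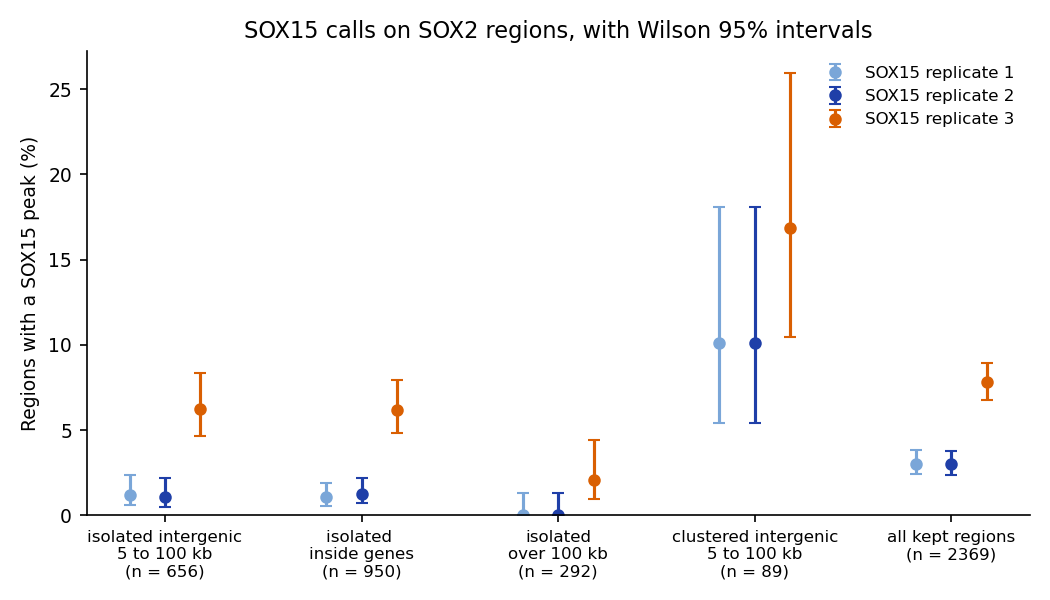
Share of SOX2 regions (%) with a peak of SOX15 replicates 1, 2 and 3, by class of region, with Wilson 95% intervals that cover counting error alone. Isolated intergenic and isolated genic regions have like shares in each library (1.22, 1.07 and 6.25% against 1.05, 1.26 and 6.21%), and clustered regions have wider and higher intervals.

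The 42 regions fell into 2 kinds by the libraries that called them, plus 1 region near Insyn1 that SOX15 replicate 1 alone called, with a fold of 5.56. SOX15 replicate 3 alone called 34 (5.18%, against 4.85% of all kept regions), and all 3 SOX15 libraries called 7 (1.07%, against 2.79%). No region was called by exactly 2. Without replicate 3 the share with any SOX15 peak was 1.22% (8 regions), against 3.17% of all kept regions.

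Regions called by SOX15 replicate 3 alone were mostly strong SOX2 sites. Their median SOX2 fold was 20.9 in replicate 1 (5.14 to 37.0) and 27.7 in replicate 2 (7.29 to 47.3), beside 8.50 and 11.2 at the 614 regions with no SOX15 peak. Of the 34, 29 had a mean rank above percentile 75. Their SOX15 folds were modest, from 3.51 to 11.2 with a median of 6.52. Of the 34, 31 had a −log10 q that reached the larger of the minima of the other SOX15 lists. A q-value belongs to its own list, so this does not show that the other libraries would have called these peaks. The SOX15 summit lay a median of 20.5 bp from the SOX2 summit, within 50 bp at 27 regions and within 100 bp at 33. The 8 with the highest SOX15 fold were near Klf9 (11.2), Slain2 (11.02), Ndufa8 (9.19), Efr3a (9.18), Glis3 (8.81), Tiparp (8.70), Apol7a (8.53) and Cxadr (8.10). Glis3 encodes a zinc finger factor of the pancreas and kidney, and Tiparp an enzyme that adds ADP-ribose.

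The share of regions that replicate 3 alone called was higher in the bins of higher SOX2 rank and close to that of other SOX2 regions. Above percentile 90 it was 22 of 77 (28.6%, interval 19.7 to 39.5), against 53 of 197 other kept regions (26.9%, interval 21.2 to 33.5). From 75 to 90 it was 7 of 123 (5.69%) against 15 of 335 (4.48%), and from 50 to 75 it was 4 of 226 (1.77%) against 8 of 540 (1.48%). From 25 to 50 it was 1 of 180 against 2 of 478, and below 25 it was 0 of 50 against 3 of 163. In each bin the intervals of both sets overlapped.

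**Figure D5:**
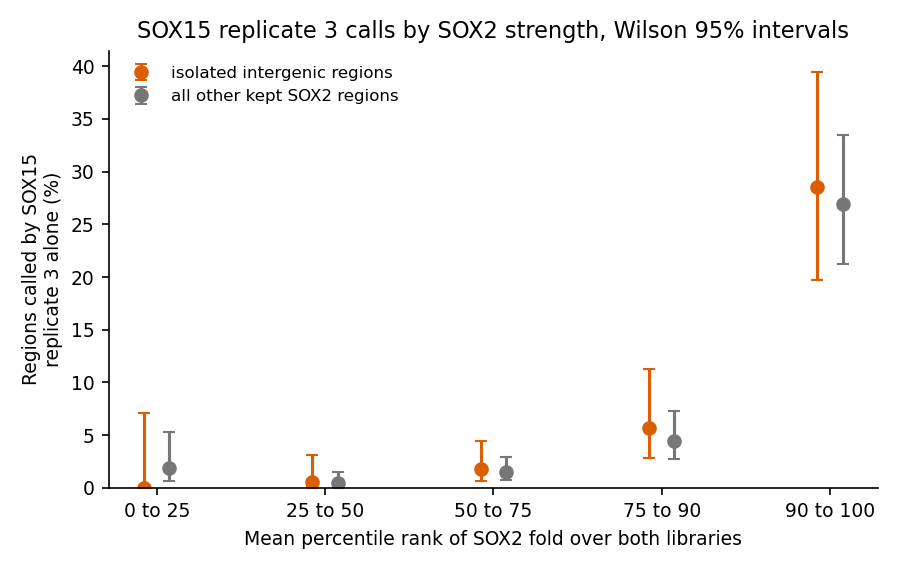
Share of regions (%) that SOX15 replicate 3 alone called, by the mean percentile rank of SOX2 fold over both libraries, for the 656 isolated intergenic regions and the other 1713 kept SOX2 regions, with Wilson 95% intervals. Both sets are highest in the last bin, with 28.6% and 26.9%, and their intervals overlap in every bin.

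Of the 7 regions that all 3 SOX15 libraries called, 5 lay inside or within 1 kb of a noncoding RNA gene. The summit was inside an lncRNA gene at 2 and within 1 kb of a small RNA gene at 3. Over the 656 regions these shares were 16.9% and 0.76%, and over all kept regions 11.1% and 1.77%. The 7 regions are few, and the difference was not tested. The region with Arl4d as nearest coding gene (chromosome 11, 101658251 to 101659132) overlapped Rnu2-10, a gene of the spliceosomal U2 RNA. Its folds were 25.1, 48.0 and 46.0 in SOX15 replicates 1, 2 and 3, and 29.3 and 32.8 in SOX2 replicates 1 and 2. The region near Fcgr1 (chromosome 3, 96328393 to 96329408) contained the small nuclear RNA (snRNA) gene Gm24830, 151 bp from its summit, with SOX15 folds of 15.8, 35.2 and 23.9 and SOX2 folds of 14.6 and 9.95. That near Gm11634 (chromosome 11, 101604748 to 101605013) overlapped the snRNA gene Gm26316, 6 bp from its summit. It had SOX15 folds of 18.1, 20.7 and 10.5, but SOX2 folds of 4.38 and 7.12. Reads of near-identical snRNA copies can map to several places, so values at single copies are uncertain.

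The other pair of noncoding genes were Malat1 and Neat1, neighbours on chromosome 19 whose abundant RNAs stay in the nucleus in speckles and paraspeckles. The Malat1 region (5802189 to 5802851) had its summit 67 bp after the start of the gene, outside the stretch printed above, which begins upstream of the start. The SOX15 folds were 11.3, 9.05 and 10.3, and the SOX2 folds 10.3 and 5.59. The region inside Neat1 (5841395 to 5841904) had SOX15 folds of 6.32, 6.09 and 7.28 and SOX2 folds of 5.95 and 5.52. The last 2 regions of the 7 had no noncoding gene within 1 kb. Near Col17a1 (chromosome 19, 47705848 to 47706474) the SOX15 folds were 16.3, 13.0 and 11.5 and the SOX2 folds 8.86 and 5.43. Near Ncs1 (chromosome 2, 31239068 to 31239542) they were 4.36, 12.9 and 15.7, and 6.50 and 5.58.

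In these 7 regions the SOX2 libraries parted. The median percentile was 55.9 in SOX2 replicate 1 and 11.9 in replicate 2, and 5 of the 7 ranked lower in replicate 2. Among the 34 regions of SOX15 replicate 3 alone the medians were 94.1 and 97.1, and 12 ranked lower in replicate 2. The SOX15 summit of replicate 3 lay 9 to 188 bp from the SOX2 summit (median 39 bp). These groups were formed by SOX15 calls, and their difference in SOX2 rank was not tested.

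Few other regions lay at small RNA genes. A summit within 1 kb of an snRNA, snoRNA, tRNA, rRNA or microRNA gene was found at 5 regions (0.76%), against 1.77% of all kept regions, and the 3 snRNA cases are those above. The others were near the tRNA gene n-TRtct2 (nearest coding gene Dnttip2, folds 9.03 and 10.9) and at Snhg5, a host gene of snoRNAs (folds 8.25 and 5.51), and neither had a SOX15 peak. Outside these classes, 1 summit lay inside Rny3, the gene of a Y RNA (nearest coding gene Pdia4, folds 6.17 and 7.65), noted after its values were seen. A summit lay within 1 kb of an lncRNA start at 22 of the 633 regions on chromosomes of the promoter table (3.48%, interval 2.31 to 5.21), against 2.05% of all kept regions. Isolated regions over 100 kb from genes had 1.79% and isolated regions inside genes 1.31%. The difference was not tested.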

How the data were processed

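The authors' peak lists of 2 SOX2 and 3 SOX15 ChIP libraries were used. The submitters' processing notes list Bowtie2, MACS2, deepTools and mm10 and give neither version nor role. The sources used here do not give the peak caller's control. Each list belongs to 1 sample. For each peak, the deposited values are the fold over background as a linear ratio, the −log10 of the p-value and that of the q-value, where the summit lies within the peak, and a score that equals 10 times the −log10 q rounded down. The smallest deposited −log10 q-value was 2.10 and 2.20 for SOX2 and 2.76, 2.03 and 1.31 for SOX15. Depth is unknown.

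From these, peaks were merged and classified as stated in the report, with percentile ranks of fold within a list. The summit of a region is that of its peak with the higher percentile. The rule was applied to simulated peak lists with planted classes as a check. A SOX15 call needs an overlap of at least 1 bp. Shares carry Wilson 95% intervals. No test across regions was made, since regions of 1 library are not replicates. Genes, strands and windows came from RefSeq tables of GRCm38.p6; 17274 of 21631 protein-coding genes had a strand. Of the gene list entries, 2 were not found. Named regions are the 10 with the highest mean rank, those with at least 2 SOX15 libraries, 8 with 1, the 25 highest at list genes, the 3 lowest, the 3 most discordant in each direction, those at small RNA genes and those next to the limits; some of these are not reported here. The members and lists were chosen with earlier results of these data known. Motifs at summits were not searched, as no genome was used here. Computation used pandas 2.3.3, numpy 2.4.6 and scipy 1.17.1 under Python 3.11.15, with figures from matplotlib 3.10.9.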

Additional observations from a re-analysis of the deposited data

Results flagged for a closer look

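The gap in median fold between isolated intergenic regions and the other kept SOX2 regions was near 0 in the SOX2 libraries and below 0 in the SOX15 libraries. The median log2 fold of isolated intergenic regions minus that of the others was 0.003 and 0.06 in SOX2 replicates 1 and 2. On regions that a SOX15 library called it was -0.54, -0.66 and -0.31 in SOX15 replicates 1, 2 and 3, over 8, 7 and 41 isolated intergenic regions. The mean of the SOX15 libraries lay below that of the SOX2 libraries by this measure, with a difference of -0.54. The difference between the factors was not tested. The SOX2 values come from the peaks that chose the regions, and the SOX15 values from called regions alone, so no direction is read from them.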

How the results depend on the processing

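The number of isolated intergenic regions was 656 and stayed between 575 and 700 under 7 alternatives (isolation of 5 or 25 kb, isolation from any SOX2 region, summits within 100 bp, −log10 q of at least 5, genes of any type, and SOX2 replicate 1 alone). With genes of any type 445 of the 656 remained. Left-out SOX2 libraries gave 691 to 1156 regions, shares with any SOX15 peak of 3.03% to 6.51%, shares with a SOX15 replicate 3 peak of 3.03% to 6.22%, and 29 to 49 list genes; the upper count of regions and genes and the lower shares are those of SOX2 replicate 2 alone. Without SOX15 replicates 1, 2 and 3 in turn the share with any SOX15 peak was 1.22% to 6.40%, with 1.22% without replicate 3. The difference of median log2 fold from clustered intergenic regions, 0.01, was 0.11 with isolation at 5 kb and -0.0701 with −log10 q in place of fold. That from regions over 100 kb was 0.19 with −log10 q in place of 0.05. The cause of these shifts was not tested. The upstream share ranged from 57.5% to 59.8% and the lncRNA share from 16.6% to 17.7%. The alternatives for these shares and for the SOX15 replicate 3 share, the settings other than the 50 kb window for list genes and the single-library differences were added after seeing the data. Planned motif windows were not run. No paired analysis was possible because no result comes from a test across samples. Peaks under the callers' thresholds cannot be seen, and depth is unknown.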
